A study of Mus musculus with 56 samples.

Results

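The 8 genes described here were chosen as neuron markers, most of them of mature neurons: Calb1, Car8, Cbln1, Slc17a7, Stmn2, Nefl, Nefh and Gap43. They were taken by exact gene symbol, each was represented by a single probe with a value in all 56 arrays, and they make up 8 of the 15224 genes measured. All samples were FVB/N mouse tissue or cells, measured on Affymetrix whole-transcript arrays that give log2 levels. There were 32 medulloblastomas from GTML mice, whose ages the labels do not give. These mice carry MYCN under tetracycline control, and a promoter of a glutamate transporter gene drives it in brain cells. The 5 normal cerebella were from GTML mice too, aged postnatal day 7 (P7) and given doxycycline, which holds the transgene off. The 9 orthotopic tumours grew from transplanted neural stem cells (NSCs) transduced with N-myc(T58A), a stabilised form of N-myc. Their NSCs were taken from cerebellum at embryonic day 16 (E16C, n = 3), from cerebellum at postnatal day 0 (P0C, n = 3) or from forebrain at postnatal day 0 (P0F, n = 3). Cultures had a single array each: cells from tumours of each origin and from a GTML tumour, N-myc(T58A) NSCs (E16C and P0C), and GFP NSCs (E16C, P0C sorted, P0C unsorted and P0F). The title of the P0F tumour cells calls their source a glioma and those of the E16C and P0C cells call theirs MB. Whether tumours of the same origin grew from separate cultures is not given in the labels, so p-values measure the spread between these samples.

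In the cerebellum, granule neurons send parallel fibres to Purkinje cells, the inhibitory output neurons of the cortex. Calb1 encodes calbindin, a calcium buffer, and Car8 a carbonic anhydrase-related protein that binds the inositol trisphosphate receptor; both are abundant in Purkinje cells. Cbln1 is secreted by granule neurons and bridges parallel fibres to receptors on Purkinje cells, and Slc17a7 (VGLUT1) loads glutamate into synaptic vesicles of granule neurons and of photoreceptors. Stmn2, a microtubule regulator, and Gap43, a growth cone protein, mark extending axons. Nefl and Nefh are the light and heavy neurofilament subunits, and the heavy subunit is added late as an axon matures.

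Several libraries stood apart from their groups. GTML tumours 20, 22, 30 and 31 correlated with the mean of the other 28 GTML tumours at r from 0.648 to 0.849 across genes, whereas each of those 28 correlated with the mean of the rest at 0.958 to 0.991. Crx, a photoreceptor transcription factor that lay between 12.1 and 13.03 in the 28, was 7.12 in tumour 20, 9.48 in tumour 22, 10.74 in tumour 30 and 6.64 in tumour 31. All 4 thus lay below the 28, while those of tumours 22 and 30 were far above the cerebella (6.17 to 6.39). The library labelled P0F GFP NSC also went against its label: its Crx level was 10.19 and its Otx2 level 11.82, where the 3 other GFP NSC libraries lay between 6.33 and 6.71 for Crx and between 6.16 and 6.44 for Otx2. Its stem cell markers Nes (9.52) and Sox2 (11.37) were nonetheless high. Results that rest on these libraries are therefore given with and without them. Cerebellar markers fitted the P7 label, with Zic1 between 12.58 and 12.91, whereas the mean of Zic1 was 7.29 in the 28 GTML tumours.

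**Figure D1:**
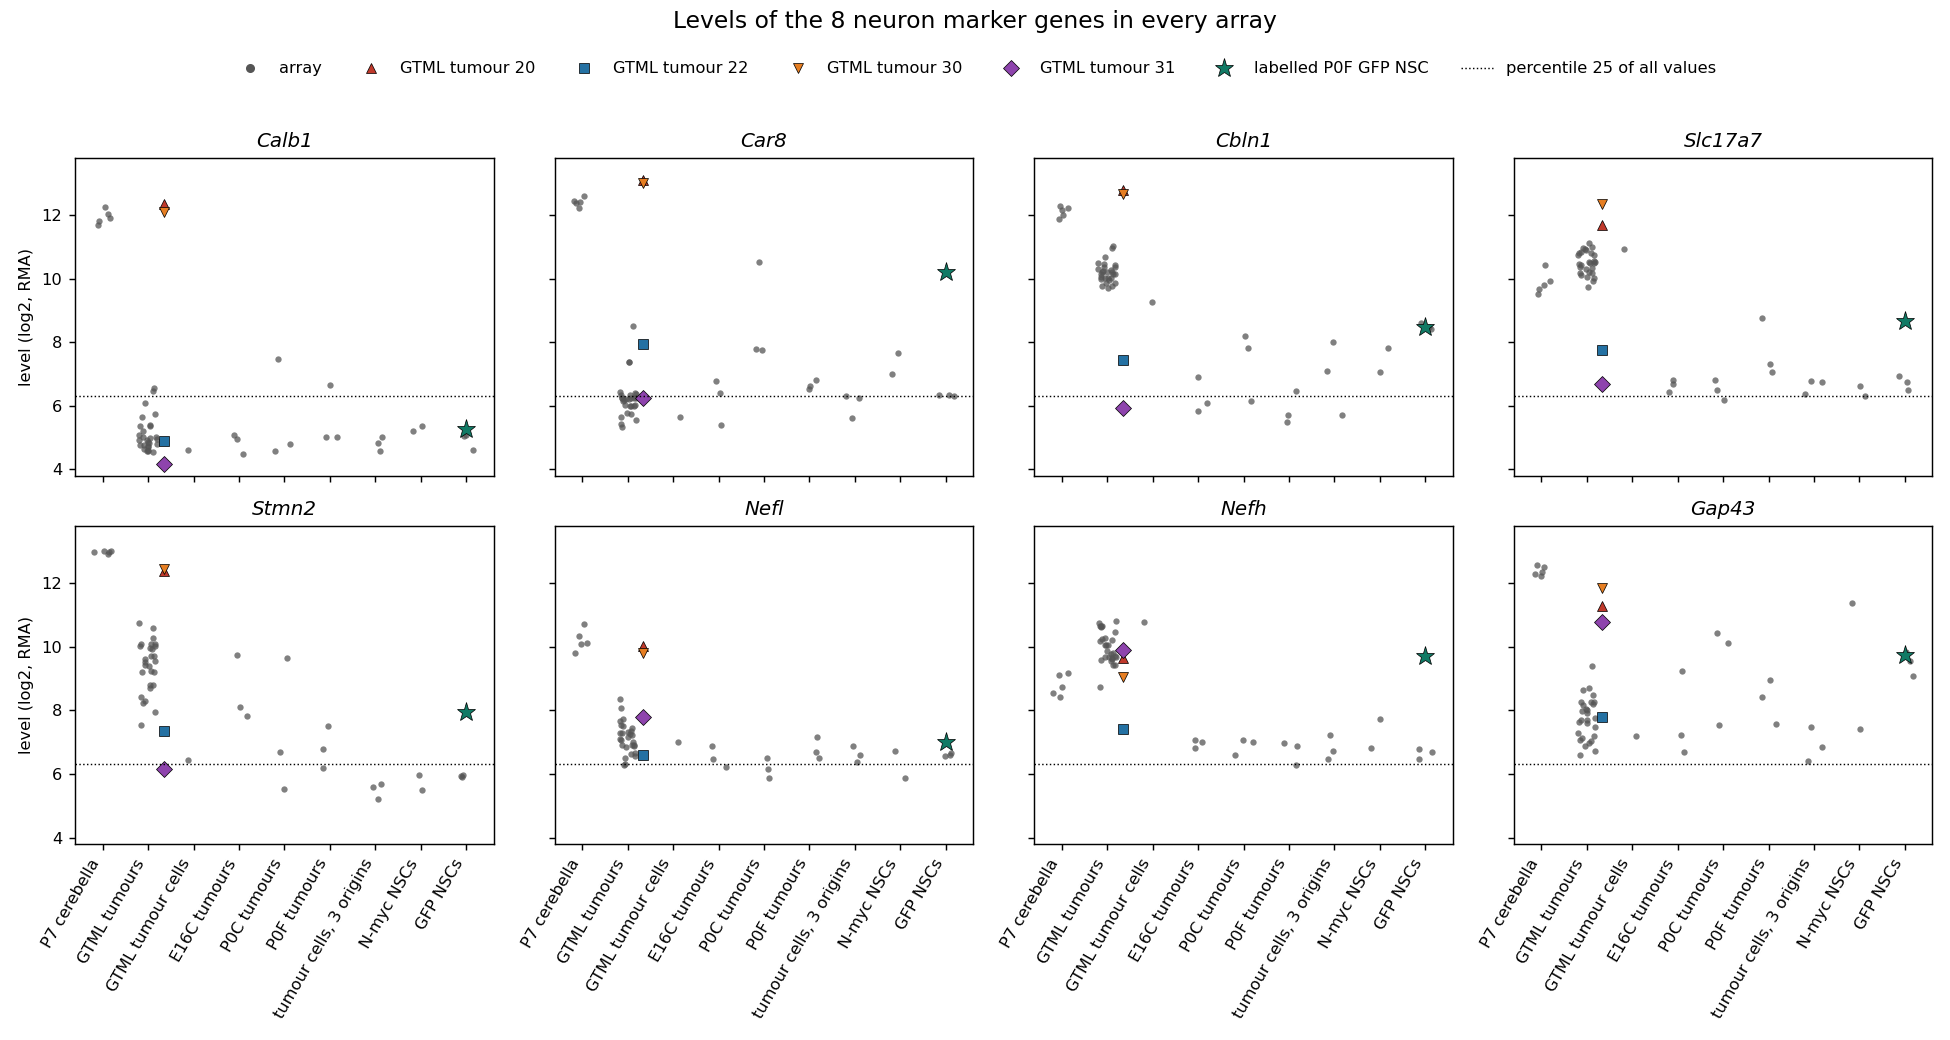
Log2 level (vertical axis) of each of the 8 genes in all 56 arrays, by sample group (horizontal axis). Coloured marks show GTML tumours 20, 22, 30 and 31, the star is the library labelled P0F GFP NSC, and the dotted line is percentile 25 of all values (6.30). Calb1 was 12.34 and 12.09 in GTML tumours 20 and 30 and at most 6.56 in the other 28.

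The first question was how far the tumours differ from normal cerebellum. In GTML tumours 6 of the 8 genes were lower than in P7 cerebella, Nefh was higher and Slc17a7 did not pass the test. A gene was called when its adjusted p from limma, over all genes tested, was under 0.05. Of 12275 genes tested 57.7% were called, 32.9% higher and 24.8% lower, and the median difference of the 8 genes was -3.23 beside 0.10 over all genes. Without the 4 tumours that stood apart, all 8 were called, 6 lower and 2 higher, where 74.4% of genes were called, 43.3% higher and 31.1% lower. In whole tissue, fewer cells of a type and less RNA of a gene per cell cannot be told apart. The cerebella were from P7 mice given doxycycline and the tumours from mice of unstated age. Age and doxycycline thus cannot be told apart from the tumour itself.

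The Purkinje cell genes fell furthest. Calb1 was 12.24, 11.90, 12.02, 11.67 and 11.80 in the 5 cerebella. In the 28 GTML tumours its lowest level was 4.54, its median 4.94 and its highest 6.56. All 28 lay below every cerebellum, in a setting where 34.8% of genes did not overlap, and 26 of them lay under percentile 25 of all values (6.30), a range in which a probe's background may set its level. Over all 32 tumours the mean was 5.52 ± 1.84 (SD, n = 32) against 11.93 ± 0.22 (SD, n = 5), a difference of -6.41 (SE 0.80, limma adjusted p = 3.42e-08). Without the 4 tumours the difference was -6.82 (SE 0.24), and no fold is given because most tumour levels lie in that low range.

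Car8 showed the same order of groups. Its levels were 12.60, 12.44, 12.42, 12.22 and 12.37 in the cerebella, and 5.33 at the lowest, 6.21 at the median and 8.52 at the highest in the 28 tumours. The groups did not overlap there, and 20 of the 28 were under percentile 25. Over all 32 tumours Car8 fell by 5.70 (SE 0.78, limma adjusted p = 1.99e-07), and without the 4 tumours the difference was -6.18 (SE 0.28).

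Cbln1 and Slc17a7, both tied to the parallel fibre synapse, kept high levels in GTML tumours. Cbln1 was 12.28, 12.16, 12.21, 11.87 and 11.99 in the cerebella and ran from 9.69 through a median of 10.17 to 11.03 in the 28 tumours. Every one of the 28 was below the cerebella, and none was under percentile 25. Over all 32 it fell by 1.96 (SE 0.51, limma adjusted p = 0.00126), or 3.90-fold, and the difference was -1.90 (SE 0.145) without the 4.

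Slc17a7 was 10.42, 9.80, 9.92, 9.50 and 9.66 in the cerebella and ran from 9.72 through 10.49 to 11.12 in the 28 tumours. Of the 28, 17 lay above every cerebellum, 11 lay within their range and none lay below. Over all 32 the difference of 0.52 did not pass the test (SE 0.43, limma adjusted p = 0.311), while over the 28 it was 0.63 (SE 0.17, limma adjusted p = 0.00118), or 1.54-fold higher. The related transporter gene Slc17a6 (VGLUT2), which granule neurons use early in their maturation, had a mean of 11.12 in the 28 tumours and 9.96 in the cerebella; over all 32 its difference of 0.67 did not pass (limma adjusted p = 0.362), and over the 28 it was 1.16 (SE 0.13, limma adjusted p = 1.02e-09). Over all 32 tumours, 8 of 8 photoreceptor genes tested were higher, by a median of 5.08. Their part in the level of Slc17a7 was not tested.

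The promoter of Slc17a7, the only member with an entry in the RefSeq promoter table used (1 of 8 matched), is shown because this gene and Nefh were the ones not lower in GTML tumours. It covers chr7:45163671-45163970 on the plus strand of GRCm38.p6, around the gene's start, with capitals marking the E-box (CANNTG, a site read by MYC family and proneural factors).
Slc17a7 promoter: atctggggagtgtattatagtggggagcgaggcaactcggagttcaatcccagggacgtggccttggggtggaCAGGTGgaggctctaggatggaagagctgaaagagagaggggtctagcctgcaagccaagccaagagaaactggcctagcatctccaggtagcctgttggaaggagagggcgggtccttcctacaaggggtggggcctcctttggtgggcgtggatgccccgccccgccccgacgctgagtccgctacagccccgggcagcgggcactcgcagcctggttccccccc
This E-box was its 1 match to CANNTG, which 72.3% of 32851 promoters of the same length hold. The form CACGTG had 0 matches and is in 7.2% of promoters, the CRX and OTX site TAATCC had 0 matches and is in 7.1%, and TATAAA had 0 matches and is in 13.6%, each searched on both strands. A match of letters is a description and does not show that a factor binds there.

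The axonal genes split. Stmn2 was 13.00, 12.97, 12.93, 13.00 and 12.97 in the cerebella and ran from 7.55 through 9.54 to 10.74 in the 28 tumours. None of the 32 tumours reached the cerebella. It fell by 3.55 over all 32 (SE 0.56, limma adjusted p = 2.04e-06), or 11.7-fold, and the difference was -3.58 (SE 0.35) without the 4. Gap43 was 12.22, 12.28, 12.51, 12.56 and 12.35 in the cerebella and 6.60 at the lowest, 7.73 at the median and 9.39 at the highest in the 28 tumours. It too was lower in all 32 tumours than in any cerebellum, where 5.8% of genes fell without overlap. Over all 32 it fell by 4.30 (SE 0.54, limma adjusted p = 3.38e-08), or 19.7-fold, and the difference was -4.63 (SE 0.29) without the 4.

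The neurofilament subunits moved in opposite directions. Nefl was 10.10, 9.81, 10.13, 10.72 and 10.34 in the cerebella and ran from 6.27 through 7.14 to 8.37 in the 28 tumours, with no overlap. Over all 32 it fell by 2.90 (SE 0.37, limma adjusted p = 4.83e-08), and the difference was -3.08 (SE 0.22) without the 4. Nefh was 9.12, 8.42, 8.54, 9.18 and 8.75 in the cerebella and ran from 8.73 through 9.97 to 10.80 in the 28 tumours. Of those 28, 27 were above every cerebellum and 1 was within their range. Nefh rose by 1.07 over all 32 (SE 0.30, limma adjusted p = 0.00255), or 2.10-fold, and by 1.20 (SE 0.22) without the 4. The medium subunit Nefm fell by 2.28 (SE 0.36, limma adjusted p = 2.75e-06), and Ina, which encodes the related filament protein alpha-internexin, differed by -0.24 without passing (limma adjusted p = 0.425). Centring each array on its median moved the median of all genes from 0.10 to 0.25 and the share of calls that were higher from 57.0% to 69.4%, and no called member changed direction.

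**Figure D2:**
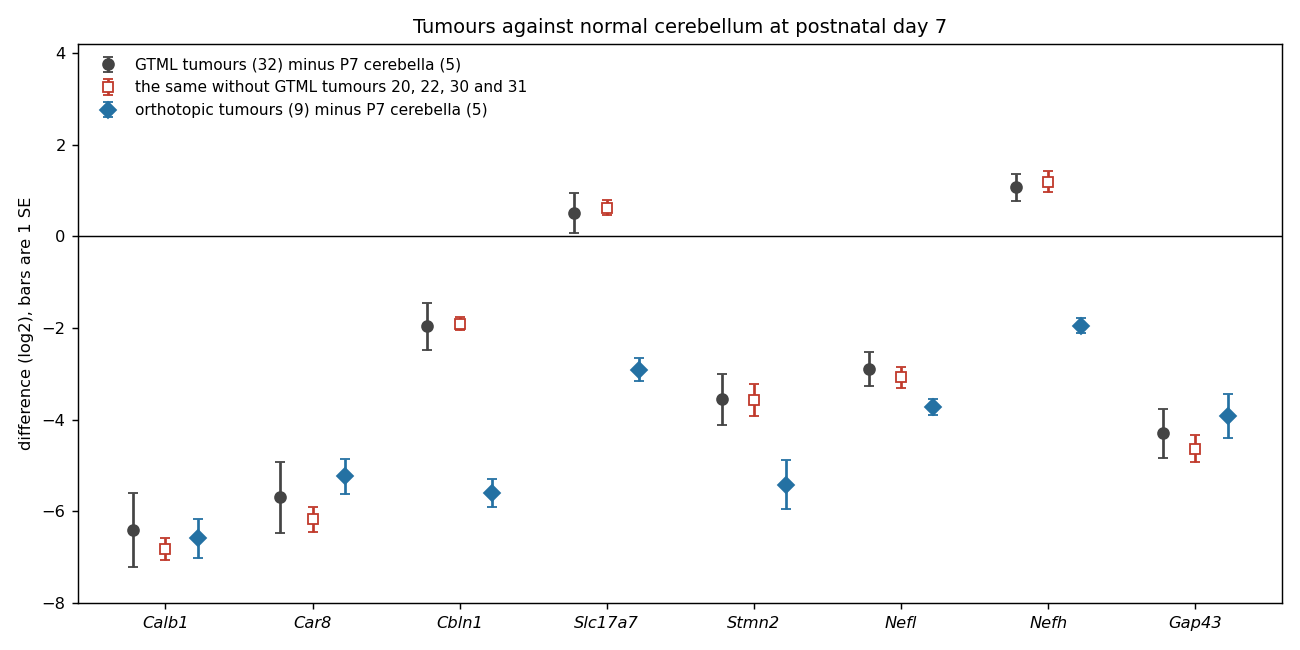
Difference in log2 level from P7 cerebella (vertical axis, bars are 1 SE) for the 8 genes in 32 GTML tumours, in the 28 without tumours 20, 22, 30 and 31, and in 9 orthotopic tumours. Nefh was 1.07 higher in GTML tumours and differed by -1.95 in orthotopic tumours.

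Other genes of the same cells and structures give the surroundings of these 8. Of 15 Purkinje and GABAergic genes tested, 13 fell in GTML tumours, among them Gad1, an enzyme that makes GABA (-4.41), Gad2 (-3.15), Pvalb (-3.11) and the Purkinje transcription factor Lhx1 (-2.93). Of 8 mature granule neuron genes 5 fell, led by the potassium channel gene Kcnd2 (-3.52) and the GABA receptor subunit gene Gabra6 (-3.35). Of 13 genes of axon growth and the cytoskeleton 7 fell and 1 rose; Mapt (tau) fell by 3.36 and the peripheral filament gene Prph rose by 0.64. Of 17 synaptic and pan-neuronal genes 11 fell, among them Syn2 (synapsin, -3.30) and Elavl3 (-3.30), while the vesicle protein genes Snap25 (-0.04) and Syp (-0.11) did not pass. Among the transporters and cerebellins 4 of 6 fell, including the GABA transporter gene Slc32a1 (-2.38) and Cbln3 (-1.90). Without the 4 tumours these lists held 13, 6, 7, 13 and 5 genes that fell and 0, 0, 2, 0 and 1 that rose, in the same order.

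Markers of glia fell beside the neuronal genes: 7 of 8 astrocyte genes and 7 of 7 oligodendrocyte genes, with medians of -2.97 and -2.56. Without the 4 tumours that stood apart, 8 of 8 and 7 of 7 fell. Of 9 cell cycle genes 0 were called over all 32 tumours. Without the 4, 8 of 9 were higher, where 43.3% of all genes were. A list score here is the mean log2 level of the genes of a list in an array. The astrocyte score ran from 11.24 to 11.42 in the cerebella and from 7.46 to 9.98 in the 28 tumours, and the oligodendrocyte score from 8.89 to 9.89 and from 6.44 to 9.04. The part of cell make-up in the falls of the 8 genes was not tested.

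The 4 GTML tumours that stood apart differed from the 28 in different ways. In tumours 20 and 30, 7 of the 8 genes lay above all 28 others, where 24.15% and 21.07% of all genes did so. Calb1 was 12.34 in tumour 20 and 12.09 in tumour 30. Car8 was 13.11 and 12.99, and Cbln1 12.79 and 12.67. For Car8 and Cbln1 both tumours exceeded every cerebellum, and for Calb1 tumour 20 did. Slc17a7 was 11.67 and 12.33, again above every cerebellum. Stmn2, at 12.38 and 12.46, and Gap43, at 11.29 and 11.84, stayed below the cerebella. Nefl was 10.04, within the range of the cerebella, and 9.79, just below it. Nefh alone stayed within the range of the 28, at 9.64 and 9.06.

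Tumours 22 and 31 were low for several genes and differed from each other for others. In tumour 22, Cbln1 (7.43), Slc17a7 (7.76), Stmn2 (7.36) and Nefh (7.42) lay below all 28, and the other 4 genes lay within their range, with Calb1 at 4.88, Car8 at 7.95, Nefl at 6.61 and Gap43 at 7.80. In tumour 31, Calb1 (4.18), Cbln1 (5.93), Slc17a7 (6.67) and Stmn2 (6.14) lay below all 28, Gap43 (10.79) lay above them, and Car8 (6.24), Nefl (7.80) and Nefh (9.90) lay within their range. Of all genes 34.0% lay below the 28 in tumour 22 and 23.5% in tumour 31. Cbln1, Slc17a7 and Stmn2 were thus below the 28 in both.

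Other marker lists moved with these tumours. The Purkinje and GABAergic score was 10.28 in tumour 20 and 10.00 in tumour 30. Both exceeded the cerebella (9.45 to 9.78) and the 28 (6.92 to 7.86). The mature granule neuron score was 11.38 and 11.28 beside 9.15 to 10.07 in the cerebella. Glial scores were high in both as well: the astrocyte score was 11.74 in each, and the oligodendrocyte score was 10.50 in tumour 20 and 10.23 in tumour 30, above the 28 and the cerebella. The choroid plexus gene Ttr was 13.89 in tumour 20, within the range of the cerebella (13.46 to 14.07), and 6.02 in tumour 30. Their cell cycle score was low, at 6.17 and 8.60 beside 9.42 to 10.72 in the 28 and 9.55 to 9.89 in the cerebella. Their photoreceptor scores, 6.67 and 8.81, fell under those of the 28 (9.82 to 11.23). Zic1 was 12.28 and 12.16 in these 2 tumours, below the cerebella and far above the mean of the 28. Tumour 22 had a cell cycle score of 6.75 and an endothelial score of 9.19, where the 28 reached 7.90. Tumour 31 had a cell cycle score of 10.49, within the 28, and an astrocyte score of 6.66, below them. The correlation across genes with the mean of the cerebella was 0.879 for tumour 20, 0.910 for tumour 30, 0.624 for tumour 22 and 0.772 for tumour 31. Whether these libraries hold normal tissue, other cells or degraded RNA was not tested.

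**Figure D3:**
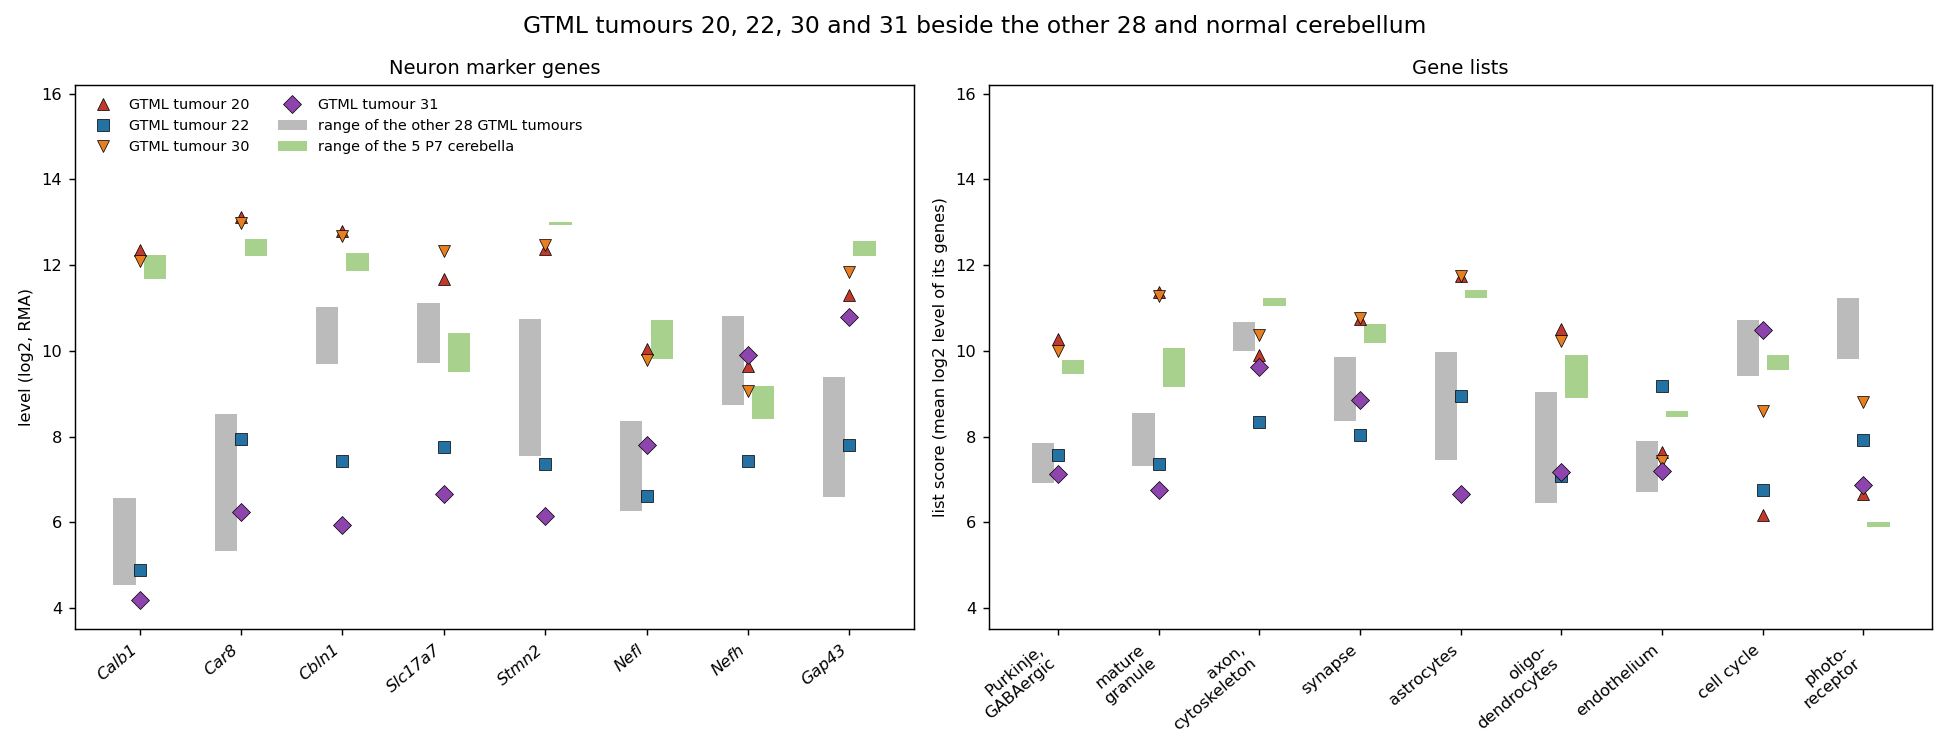
Left, log2 levels of the 8 genes; right, scores of 9 marker lists (mean log2 level of the genes of a list). Grey bars span the 28 other GTML tumours, green bars the 5 P7 cerebella, and marks are GTML tumours 20, 22, 30 and 31. The Purkinje and GABAergic score was 10.28 and 10.00 in tumours 20 and 30 and at most 7.86 in the 28.

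Among the 28 remaining GTML tumours the 8 genes varied more than most genes. The SD of Stmn2 was 0.80, larger than that of 98.6% of 11735 genes, and those of Gap43 (0.67) and Car8 (0.64) came next, while the median gene had an SD of 0.21. Car8 lay under percentile 25 of all values in 20 of the 28, where a probe's background may set its level. The steadiest was Cbln1 (SD 0.32, percentile 80.1), followed by Slc17a7 (SD 0.36, percentile 84.4). Levels of the genes were compared in all 28 possible pairs over these tumours, by permutation with adjustment over the pairs. Stmn2 and Nefh rose together (r = 0.549, permutation p = 0.00247, adjusted 0.0254; rho = 0.602, permutation p = 0.00103, adjusted 0.0288). Without the 2 tumours farthest from the median of Stmn2, r was 0.569. This was the 1 pair of 28 that passed by both measures.

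By r alone 2 more pairs passed. Nefl and Gap43 had r = 0.563 (permutation p = 0.00205, adjusted 0.0254) and rho = 0.439 (permutation p = 0.0209, adjusted 0.0974). Without the 2 tumours farthest from the median of Nefl, r was 0.327, and how far the relation rests on those was not tested. Calb1 and Gap43 had r = 0.541 (permutation p = 0.00272, adjusted 0.0254) and rho = 0.449 (permutation p = 0.0174, adjusted 0.0972), with r = 0.555 without the 2 farthest. Calb1 and Car8, both Purkinje genes, had r = 0.444 (permutation p = 0.022, adjusted 0.077). Calb1 lay under percentile 25 of all values in 26 of these 28 tumours and Car8 in 20. A probe's background may set levels in that range, which limits the relations of both genes. Over all 32 tumours, in which 4 libraries stand apart, 16 pairs passed by r and 1 by rho. Stmn2 and Nefh passed by neither there (r = 0.291, permutation adjusted p = 0.145, and rho = 0.392, permutation adjusted p = 0.0844). The pair that passed by rho was Nefl and Gap43 (rho = 0.57, permutation adjusted p = 0.0213).

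**Figure D4:**
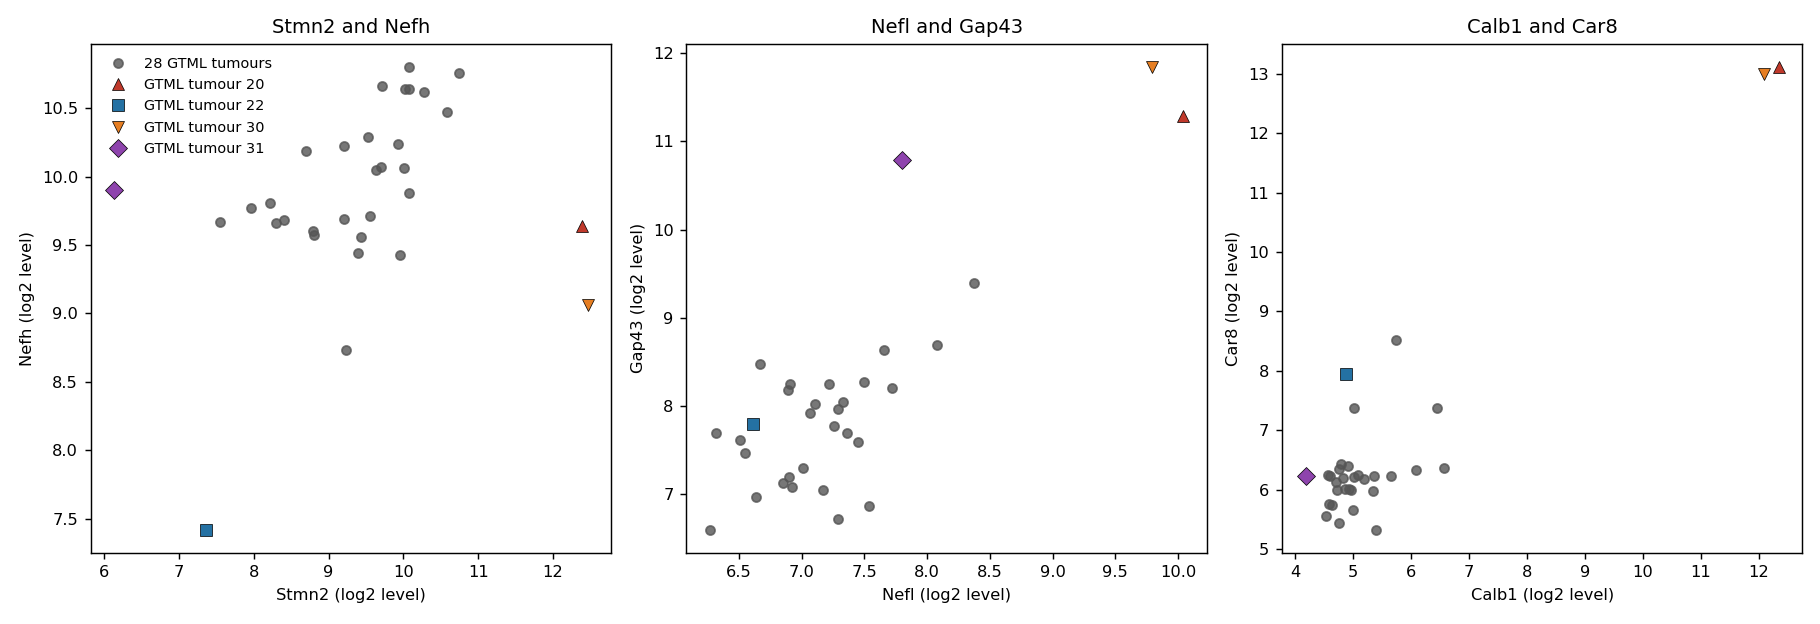
Log2 levels of 3 pairs of genes in GTML tumours (axes: the level of each gene). Grey points are the 28 tumours and coloured marks tumours 20, 22, 30 and 31. Stmn2 and Nefh rise together within the 28 (r = 0.549), while Calb1 and Car8 lie near 12 and 13 in tumours 20 and 30, far from the rest.

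In the orthotopic tumours all 8 genes were lower than in P7 cerebella and none of the groups overlapped. Of 11765 genes tested 62.5% were called, 31.1% lower, and 18.6% fell without overlap. These tumours were labelled for the arrays by another protocol than the cerebella, and the protocol and the group cannot be told apart. The P7 age and the doxycycline of the cerebella cannot be told apart from the group either. Calb1 had a mean of 5.34 ± 1.02 (SD, n = 9) and fell by 6.59 (SE 0.42, limma adjusted p = 6.09e-08). Cbln1 differed by -5.60 (SE 0.30), Stmn2 by -5.42 (SE 0.54) and Car8 by -5.24 (SE 0.39). The other 4 had smaller falls, Gap43 of -3.92, Nefl of -3.72, Slc17a7 of -2.91 and Nefh of -1.95, each with a limma adjusted p of 1.7e-05 or less. Of the neuronal lists, 13 of 15 Purkinje and GABAergic genes and 7 of 8 mature granule neuron genes fell. So did 9 of 13 axonal genes and 15 of 17 synaptic genes, and in none of these lists did a gene rise. Other cell types moved with them: 5 of 8 astrocyte and 6 of 7 oligodendrocyte genes fell, 5 of 8 microglial genes rose and 1 fell, and 6 of 9 cell cycle genes rose. Their part in the falls of the 8 genes was not tested.

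Set against GTML tumours, the orthotopic tumours were lower in 5 of the 7 genes tested, beside 33.3% of 12030 genes (60.6% were called in either direction). The protocol of labelling again differs between the sides. Cbln1 was 6.51 ± 0.95 (SD, n = 9) against 10.14 ± 1.16 (SD, n = 32), a difference of -3.63 (SE 0.40, limma adjusted p = 3.64e-10), or -3.69 without the 4 GTML tumours. Slc17a7 differed by -3.43 (SE 0.34, limma adjusted p = 2.11e-11), or -3.54 without them. Nefh ran from 6.27 to 7.06 in orthotopic tumours and from 7.42 to 10.80 in GTML tumours, lower without overlap, as for 2.39% of genes, and differed by -3.02 (SE 0.23, limma adjusted p = 1.57e-14), or -3.14 without them. Without the 4 none of these 3 genes overlapped between the tumour models, where 13.1% of genes did not.

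Stmn2 differed by -1.87 and Nefl by -0.82, both called, and by -1.84 and -0.64 without the 4, again called. Car8 (0.46, limma adjusted p = 0.535) and Gap43 (0.38, limma adjusted p = 0.481) did not pass. Without the 4 GTML tumours they were higher in orthotopic tumours, Car8 by 0.94 (limma adjusted p = 0.00176) and Gap43 by 0.72 (limma adjusted p = 0.0301), where 31.6% of genes were higher. Calb1 did not pass the filter on low values here and was not tested; its levels ran from 4.48 to 7.46 in orthotopic tumours. Slc17a6 was lower as Slc17a7 was (-4.61, limma adjusted p = 1.64e-10), and the photoreceptor genes were lower in 8 of 8. Higher in orthotopic tumours were 5 of 8 astrocyte, 4 of 7 oligodendrocyte, 4 of 7 microglial and 4 of 4 cultured stem cell genes, and their part in these differences was not tested.

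The origin of the transplanted NSCs was compared next. None of the 7 genes tested passed between P0C and E16C tumours, where 0.705% of genes were called, and 1 of 7 had an unadjusted p under 0.05, as did 14.4% of genes. Car8 was 7.74, 10.51 and 7.78 in the P0C tumours and 5.40, 6.41 and 6.77 in the E16C tumours. Every P0C tumour was above every E16C tumour, as for 7.18% of genes, and the difference of 2.48 had a limma adjusted p of 0.163. The oligodendrocyte score ran from 9.16 to 11.37 in the P0C tumours and from 6.24 to 7.43 in the E16C tumours, with 4 of 7 of its genes called higher; its part in the level of Car8 was not tested. Stmn2 was 8.11, 7.83 and 9.75 in the E16C tumours, 6.68, 5.52 and 9.65 in the P0C tumours and 6.77, 7.50 and 6.18 in the P0F tumours. The P0C tumours overlapped with those of both other origins.

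Between P0F and P0C tumours none of the 7 passed either, where 1.18% of genes were called, and 4 of 7 had an unadjusted p under 0.05, as did 16.3% of genes. Slc17a7 was 7.31, 8.77 and 7.06 in the P0F tumours and 6.50, 6.17 and 6.80 in the P0C tumours (difference 1.22, limma adjusted p = 0.189). Car8, at 6.80, 6.54 and 6.63 in the P0F tumours, differed by -2.02 (limma adjusted p = 0.196). Of the oligodendrocyte genes 2 of 7 were lower in P0F tumours (median -3.27), and their part in this was not tested. Neither gene overlapped between these origins, as was so for 25.5% of genes. Gap43 was 8.42, 7.57 and 8.97 in the P0F tumours, 7.54, 10.44 and 10.13 in the P0C tumours and 6.68, 7.23 and 9.23 in the E16C tumours, and the ranges overlapped.

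The tumours were also set against the GFP NSCs, with origin as an additive term and the lone P0F and E16C controls taken to vary like the replicated groups. The sorted and unsorted P0C GFP arrays were counted as separate, here and against N-myc NSCs. Their titles do not say whether they came from separate cultures. Of 7 genes tested Cbln1 alone was called, where 11.6% of genes were, 7.3% lower. It was 8.59 in the E16C, 8.41 and 8.48 in the P0C and 8.48 in the P0F GFP NSCs. In the tumours it was 6.07, 5.83 and 6.89 (E16C), 6.14, 7.80 and 8.2 (P0C) and 5.70, 6.46 and 5.48 (P0F). All 9 tumours lay below all 4 cultures, as for 3.37% of genes, and the difference was -1.86 (SE 0.44, limma adjusted p = 0.0152). Without the library labelled P0F GFP NSC it was -1.74 (SE 0.53, limma adjusted p = 0.0448). Without all forebrain arrays it was -1.53 and no longer passed (SE 0.44, limma adjusted p = 0.0603).

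Microglial genes were called higher in the tumours in 7 of 8 cases and endothelial genes in 4 of 6, and their part in these differences was not tested. For Car8 and Nefh the sign of the difference turned with a single library: Car8 differed by -0.04 with the library labelled P0F GFP NSC and by 1.21 without it (limma adjusted p = 0.982 and 0.235), and Nefh by -0.60 and 0.32 (limma adjusted p = 0.403 and 0.339). The sign for Car8 also turned to positive with quantile normalization (0.15) with centred arrays (0.05) and without some single tumours. That library held Car8 at 10.22, Nefh at 9.72, Slc17a7 at 8.66 and Stmn2 at 7.95. The 3 other GFP NSC libraries held Car8 between 6.29 and 6.34, Nefh between 6.48 and 6.78, Slc17a7 between 6.49 and 6.92 and Stmn2 between 5.90 and 5.97. All 4 genes were more than 2-fold above the other GFP NSCs there, as were 2.14% of 11735 genes. Slc17a6 (9.38) and Ina (11.20) stood high in it as well.

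In cells grown out of the tumours none of the 7 genes tested passed against the tumours, where 3.64% of genes were called, and 2 of 7 had an unadjusted p under 0.05, as did 19.2% of genes. The titles of the cells name a numbered tumour as their source, and the fit did not pair cells with tumours. Stmn2 was 5.2, 5.67 and 5.58 in the E16C, P0C and P0F cells, all under percentile 25, and its difference from the tumours was -2.07 (SE 0.75, limma adjusted p = 0.141, and 0.103 without the library labelled P0F GFP NSC). Gap43 was 7.47, 6.86 and 6.42 in the same cells, a difference of -1.55 (limma adjusted p = 0.237). Set against all 9 tumours, both genes were lower in the cells than in most, without passing. Within E16C, Gap43 in the cells lay above the tumours at 6.68 and 7.23 and below that at 9.23. Microglial genes were lower in the cells in 7 of 8 cases.

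Transduction of NSCs with N-myc(T58A) was compared with GFP for the 2 cultures that had it. None of the 8 genes passed, and none had an unadjusted p under 0.05; in all, 1 of 12557 genes was called by limma (0.00796%), and 1068 (8.51%) had an unadjusted p under 0.05. Cbln1 was 7.05 and 7.81 in the E16C and P0C N-myc NSCs, below all 4 GFP cultures, as for 7.68% of genes, and differed by -1.01 (limma adjusted p = 0.697). Without the library labelled P0F GFP NSC none passed either; Nefh went from -0.02 to 0.65 (limma adjusted p = 0.347), Car8 from 0.28 to 1.19 (limma adjusted p = 0.603), and Gap43 turned from -0.02 to 0.15 (limma adjusted p = 0.973). Gap43 was 7.40 in the E16C and 11.38 in the P0C N-myc NSCs, the latter above every tumour of the transplant series. The GFP NSCs held Gap43 between 9.07 and 9.83.

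The cells grown out of a GTML tumour were a single array, so no test was made, and the labels do not settle by which protocol it was labelled. Slc17a7 was 10.94 and Nefh 10.78, both within the range of the 28 GTML tumours and near its upper end. Stmn2 was 6.43 and Cbln1 9.26, both below the 28, where 23.3% of genes lay below. Calb1 (4.62), Car8 (5.65), Nefl (7.00) and Gap43 (7.18) lay within the range. These cells kept Crx at 11.15, while Slc17a6 was 5.87. Slc17a7, Nefh, Cbln1, Stmn2 and Slc17a6 were all at high level in the 28 tumours. Of these, Slc17a7 and Nefh were also high in this culture. Cbln1, at 9.26, stayed high but lay below its median of 10.17 in the 28. Stmn2, with a median of 9.54 in the 28, and Slc17a6 were not high in the culture.

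The order of the groups by level differed between the genes, and it sets arrays of both labelling protocols side by side, with that of the GTML tumour cells unsettled. P7 cerebella came first for Calb1, Car8, Cbln1, Stmn2, Nefl and Gap43. GTML tumour cells came first for Slc17a7 and Nefh, followed by GTML tumours and then, for Slc17a7, the cerebella; the mean of GTML tumours (10.38 ± 0.98, SD, n = 32) and that of the cerebella (9.86 ± 0.35, SD, n = 5) did not differ beyond their spread, whereas the 28 tumours without the 4 (10.49 ± 0.36, SD, n = 28) were called higher than the cerebella. For Cbln1 the GFP NSCs (8.49 ± 0.08, SD, n = 4, with the sorted and unsorted P0C arrays counted apart) ranked between GTML tumours and orthotopic tumours. For Nefl, levels in all orthotopic tumours and transplant series cultures fell between 5.86 and 7.15. Most of these groups were single arrays without a spread, so the order of neighbours was not tested.

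For each gene, the most similar profiles over the 56 arrays are given by Pearson's r, as a description. The arrays span 15 groups and both labelling protocols, and the differences between groups carry much of each value. Calb1 was most like Crhr1 (r = 0.967), Tenm1 (0.958) and Cacna1e (0.955), and these 3 also followed it within the 28 GTML tumours (r = 0.599 to 0.729). In 26 of those 28, Calb1 lay under percentile 25 of all values, where a probe's background may set its level. Car8 was most like Cntn6 (0.922), which within the 28 had r = 0.15. Cbln1 was most like Scn8a (0.915), Slc17a7 like Cadm3 (0.941) and Sv2b (0.933), and Stmn2 like Zbtb18 (0.902). Within the 28 these pairs had r = 0.208, 0.409, 0.29 and -0.03, in the same order. Nefl was most like Cdh7 (0.923), with r = 0.651 within the 28, and Nefh like Sgpp2 (0.929), with r = -0.16 within the 28. Gap43 was most like Atcay (0.926), and next like Apba1 (0.895) and Mapt (0.881), with r = 0.626, 0.506 and 0.543 within the 28.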

How the data were processed

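Levels of 56 mouse arrays were used as deposited: log2 values which, per the submitters' processing notes, the authors made with RMA, with mm9 named as the build. Of the values 31111 (3.12%) were blank and were left missing. Groups came from sample titles; the cell type tags of 3 E16 samples disagree with their titles. GTML tumours and cerebella were labelled by one Affymetrix protocol and the transplant series by an Ambion protocol, per the labels' protocols.

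Of 17831 probes, 15620 had a single gene symbol in GEO's platform annotation, 1370 several and 841 none; for 375 genes with several probes, that of highest mean was kept. Genes above percentile 25 of all values in as many arrays as the smaller side holds were tested with limma 3.58.1 (R 4.3.3), with Benjamini-Hochberg adjustment over all of them. Pairs of genes were tested with 100000 permutations. The fits were tested on simulated data. The number of arrays limits the precision. Array medians ran from 7.86 to 8.25. Arrays of a group were compared, and no duplicates were found.

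Named genes are the 8 members, the genes of lists for the same cells and structures, and for each member the 3 genes of highest r over 56 arrays. Members and lists were chosen with earlier results of these data known. Alternatives were quantile normalization, centring, other filters, other probe rules, filled blanks, a robust fit, all arrays in 1 model, a replicate block and leaving out single arrays. Leaving out the 4 GTML tumours, the forebrain arrays or the library labelled P0F GFP NSC was chosen after seeing the data.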

Additional observations from a re-analysis of the deposited data

Results flagged for a closer look

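Of 24 checks for an array far from the rest of its group, 5 met the criterion, where chance gives about 1 in 20. In the 4 GFP NSC arrays, the library labelled P0F GFP NSC held Car8 at 10.22 (nearest 6.34), Stmn2 at 7.95 (nearest 5.97) and Nefh at 9.72 (nearest 6.78). Among the 9 orthotopic tumours, P0C tumour 2 held Car8 at 10.51 (nearest 7.78) and P0F tumour 2 held Slc17a7 at 8.77 (nearest 7.31).

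For 3 genes, every tumour of an origin lay above its GFP NSC arrays and every tumour of another origin below its own, a difference that was not tested. Car8 was 2.36 higher in P0C tumours and differed by -3.56 in P0F. Stmn2 was 2.61 higher in E16C tumours and differed by -1.13 in P0F. Nefh was 0.19 higher in E16C tumours and differed by -3.01 in P0F. Each P0F value rests on the library labelled P0F GFP NSC.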

How the results depend on the processing

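Of 1103 values of the 8 genes under alternatives, 1099 stayed on the same side of the threshold, 3 gained a call, 1 lost it and 0 called values reversed. Of the 1099, 27 changed sign, none of them called. The number of genes called moved more. With all 56 arrays in 1 model it went from 84 to 989 (P0C against E16C tumours), from 141 to 1329 (P0F against P0C), from 1408 to 2571 (tumours against GFP NSCs), from 450 to 1706 (cells against tumours) and from 1 to 432 (N-myc against GFP NSCs). Without forebrain arrays the last 3 were 918, 51 and 2, and members called against GFP NSCs went from 1 to 0. Quantile normalization gave 292 for cells against tumours. N-myc against GFP NSCs gave 4 with blanks filled and 2 without the library labelled P0F GFP NSC, where tumours against GFP NSCs gave 1557 and cells against tumours 501. Leaving out each of the 9 orthotopic tumours gave 23 to 227, 0 to 253 (0 without P0F tumour 1), 1107 to 1554, 291 to 480 and 0 to 1 for these 5; the last bears on the shared spread, since no tumour is compared there. Leaving out each cerebellum gave 6327 to 6576 for GTML tumours against cerebella; GTML tumours were not left out singly. Centring moved the share of calls that were higher from 78.6% to 66.0% (P0C against E16C) and from 36.9% to 55.9% (tumours against GFP NSCs).

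Replicate numbers did not pair the tumours and cerebella (correlation of deviations -0.187 to 0.197), and cultures were not part of that check. With the replicate block the counts were 36 for P0C against E16C, 25 for P0F against P0C and 4128 for orthotopic against GTML tumours, where the same arrays without the block gave 4332.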
